A study of Mus musculus with 3 samples.

Results

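The cytosolic ribosome is built from a large and a small subunit, each a scaffold of ribosomal RNA to which a fixed set of ribosomal proteins is bound. Their genes are among the most strongly expressed in growing cells, and many of their mRNAs start with a run of pyrimidines, the terminal oligopyrimidine (TOP) motif, through which growth signals control their translation. Most mammalian ribosomal protein genes have left intronless processed pseudogenes in the genome, and a few have expressed paralogs that differ in sequence or in the tissue where they are used.

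The genes described here are those whose symbol is Rpl or Rps with a number and a short suffix, Rpsa, or Rplp0 to Rplp2. This rule found 81 of the 15554 genes in the table, 49 of the large and 32 of the small subunit. It used no measured value. A mean of at least 1 FPKM (fragments per kilobase of transcript, scaled to sequencing depth, which is per length) over the 3 libraries was reached by 78 of them, 46 of the large and 32 of the small subunit. Rpl10l, Rpl26 and Rpl29 did not reach it.

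NIH3T3 cells are immortalized fibroblasts from mouse embryos. They were kept without serum and then either left unstimulated (CTRL) or stimulated for 24 h with 100 ng/mL of GDF15 or with 4 ng/mL of TGF-β. In each of these 3 groups 3 RNA samples were pooled and 1 stranded mRNA library was sequenced. There is no replicate, so no difference below has a replicate check or a p-value, and each compares these libraries.

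All 8 fibroblast markers examined were above 1 FPKM, and summed to 15957 FPKM (CTRL), 18439 FPKM (GDF15) and 17055 FPKM (TGF-β). Single markers differed in order. Fn1 had 3738, 5815 and 5385 FPKM, and S100a4 had 3817, 2529 and 2942 FPKM. None of 4 epithelial and 3 endothelial markers reached a mean of 1 FPKM, and Epcam was listed at 0 in all libraries. Of 3 haematopoietic markers 2 did, with sums from 5.89 to 7.45 FPKM. Depth, estimated from the steps in low FPKM values, was 18700000 fragments (CTRL), 21900000 (GDF15) and 17900000 (TGF-β).

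Ribosomal protein genes took 14.7% of the summed FPKM of CTRL, 11.6% of GDF15 and 12.9% of TGF-β. The large subunit accounted for 7.73%, 6.09% and 6.83% in this order, and the small subunit for 6.94%, 5.54% and 6.10%. The median level of the 78 genes was 495 FPKM in CTRL, 366 FPKM in GDF15 and 397 FPKM in TGF-β, whereas the median of all other genes above the minimum was 12.8, 12.5 and 12.01 FPKM. Among the 100 genes with the highest FPKM, ribosomal protein genes numbered 44 (CTRL), 37 (GDF15) and 41 (TGF-β). The summed level was therefore highest in CTRL and lowest in GDF15, with TGF-β between them, for each subunit alone and for both. In bulk RNA, a smaller share of FPKM cannot be told apart from more RNA of other genes or from fewer cells with a high level.

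Levels within the group lay far apart although most of the proteins are used in equal numbers in a ribosome. Over 1000 FPKM were reached by 15 genes of CTRL, 7 of GDF15 and 9 of TGF-β. Rplp1, a protein of the stalk that recruits elongation factors, was the highest, with 2520 FPKM in CTRL, 1808 FPKM in GDF15 and 2183 FPKM in TGF-β. It was followed in mean FPKM by Rpl41, the smallest ribosomal protein, with 2073, 1266 and 1750 FPKM. Rps4x, the X-linked form of a small subunit protein, had 1726, 1535 and 1526 FPKM. Rps20 had 1789, 1290 and 1418 FPKM, and Rps15, a protein of the small subunit head, had 1743, 1298 and 1441 FPKM. All 5 were highest in CTRL, and Rps4x alone among them had a slightly higher value in GDF15 than in TGF-β.

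**Figure D1:**
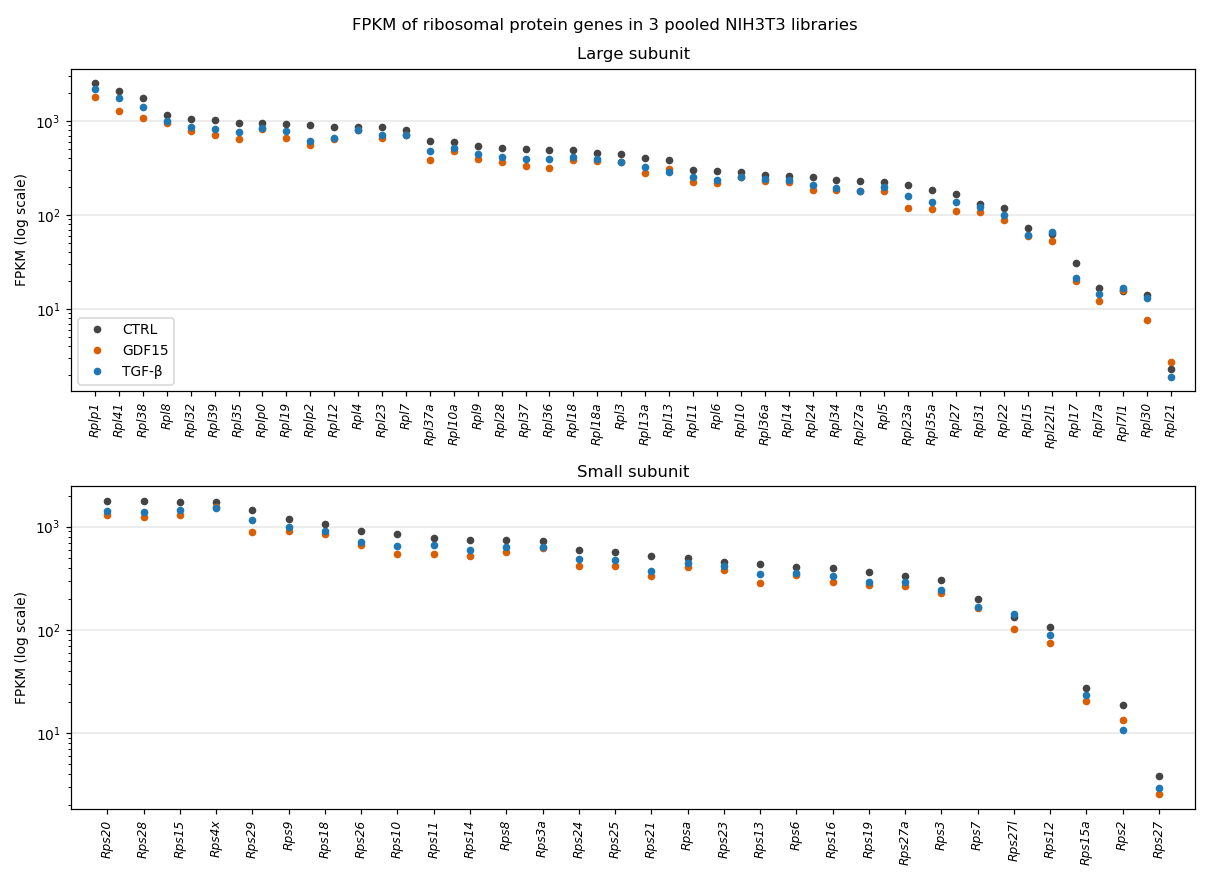
FPKM (log scale) of 76 of the 78 ribosomal protein genes with a mean of at least 1 FPKM, ordered by the level in CTRL, for the large and the small subunit. Each point is 1 pooled library, without an error. CTRL is the highest point for most genes, and a tail of genes lies far below the rest of its subunit.

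At the lower end, 13 of the 81 genes were under 100 FPKM in CTRL. The lowest above the minimum were Rpl21 (2.31 FPKM in CTRL, 2.70 FPKM in GDF15, 1.90 FPKM in TGF-β) and Rps27 (3.80, 2.55 and 2.95 FPKM). Rpl30 had 14.2, 7.59 and 13.1 FPKM, Rps2, which lies at the mRNA entry of the small subunit, had 18.6, 13.3 and 10.6 FPKM, and Rpl7a had 16.6, 12.2 and 14.6 FPKM. Rpl29 was listed at 0.821, 0.688 and 0.675 FPKM, and Rpl26 at 9.57e-05 FPKM in CTRL, far below the 0.139 FPKM that 1 fragment would give for its transcript. Rpl10l, a retrotransposed copy of the X-linked Rpl10 that is used in the testis, was listed at 0 in all 3 libraries. Proteins of every ribosome, such as Rpl21, Rpl26 and Rps27, were thus listed far below Rplp1, and these values were read against the sequence that the genes share with others.

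Each coding sequence was taken from the GENCODE M21 annotation of GRCm38 and each of its 50-base windows, the length of the reads, was looked up in the transcripts of all other annotated genes. All windows of 29 of the 81 genes were found in at least 1 other gene, and 13 genes had under 50% of their windows there. Windows of Rpl7a occurred in 119 annotated pseudogenes, those of Rpl21 and Rpl29 in 81 each, those of Rps2 in 71 and those of Rpl17 in 50. The 50 bases of each that occurred in the most other genes are shown for Rpl7a (43 other genes), Rpl21 (44) and Rpl29 (30).

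Rpl7a, coding bases 420 to 469: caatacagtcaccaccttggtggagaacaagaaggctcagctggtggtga
Rpl21, coding bases 96 to 145: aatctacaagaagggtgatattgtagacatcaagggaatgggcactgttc
Rpl29, coding bases 211 to 260: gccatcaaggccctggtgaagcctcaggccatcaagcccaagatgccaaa

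The 48 genes with 0 to 9 matching pseudogenes had a median level of 674 FPKM in CTRL. The 22 genes with 10 to 19 had a median of 348 FPKM, and the 11 genes with 20 or more had 72.8 FPKM. The 5 genes with the most pseudogenes had a median of 16.6 FPKM and none was above 30.5 FPKM. Across the 81 genes, which share libraries and a method of counting, Spearman's rho between the number of pseudogenes and FPKM in CTRL was -0.44, given as a description. Few pseudogenes did not go with a high level in each case. Rps27 was at 3.80 FPKM with 8 of them, and the paralog Rpl7l1 at 15.7 FPKM with 3. Genes with little shared sequence were high in the cases of Rpl8 (1154 FPKM in CTRL, 8.73% of windows shared) and Rpl4 (857 FPKM, 20.3% shared). How the authors' counting treated reads that match several places is not given in the sources used here, and its part in the low values was not tested. The levels of genes with many copies are therefore uncertain. Whether shared reads also alter the changes between libraries was not tested. The number of pseudogenes and the change by GDF15 had a rho of 0.10 over the 78 genes.

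**Figure D2:**
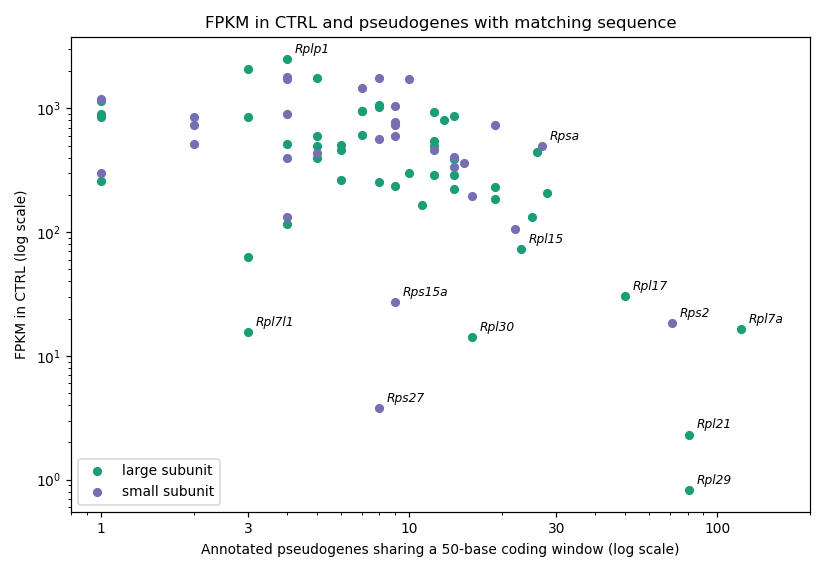
FPKM in CTRL (log scale) of the ribosomal protein genes against the number of annotated pseudogenes that hold at least 1 of their 50-base coding windows (log scale). Each point is 1 gene in 1 library, and Rpl10l and Rpl26, listed at or near 0, and 2 other genes are not drawn. The 5 genes with the most pseudogenes, Rpl7a, Rpl21, Rpl29, Rps2 and Rpl17, are all at or below 30.5 FPKM.

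The comparison of GDF15 with CTRL asks whether GDF15 alters the ribosomal protein genes of these fibroblasts. Here and below a change is a difference of log2(FPKM + 1). For genes of low FPKM this scale makes changes appear smaller. The median change of the 78 genes was -0.42, with quartiles of -0.52 and -0.31, and the median of all other genes was -0.03. With the trend of other genes with transcript length taken off, it was -0.16, and 59 other genes that are short and highly expressed had a median of -0.47. Expressed as FPKM, the median gene was at 74.5% of its CTRL value. In GDF15 76 of the 78 genes were lower than in CTRL, against 55.6% of the 9226 genes with a mean of at least 1 FPKM. Lower by more than 0.32, a smaller step counted beside 2-fold, were 57 of the 78 genes, against 10.0% of all genes. None was over 2-fold lower or higher, against 0.477% of all genes. The direction was thus shared by nearly all members, and the size ranged up to a value of 53.5% of CTRL, for Rpl30.

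The comparison of TGF-β with CTRL asks the same of the related ligand. The median change was -0.26, with quartiles of -0.33 and -0.20, and the median of all other genes was -0.07. It was -0.0867 with the length trend taken off, and -0.27 for the 59 other short and highly expressed genes. The median gene was at 83.2% of its CTRL value. In TGF-β 75 of the 78 genes were lower than in CTRL, against 62.8% of all genes, 21 were lower by more than 0.32, against 14.3%, and none differed over 2-fold, against 1.48%. Both comparisons share the single CTRL library, so that an unusual CTRL value enters both. Lower in both were 74 of the 78 genes.

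Set directly beside each other, TGF-β and GDF15 differed by a median of 0.15, and 74 of the 78 genes were higher in TGF-β, against 39.7% of all genes. With the trend of the change with transcript length taken off, the median was 0.0755 and 26 instead of 4 genes were lower in TGF-β. Other genes of up to 800 bases with a mean above 100 FPKM, 59 in number, had a median of 0.18, and 53 of them were higher in TGF-β. Of the ribosomal protein genes none differed over 2-fold, against 0.163% of all genes. Uncorrected, the 4 genes lower in TGF-β than in GDF15 were Rpl21, Rps2, Rpl13 and Rps4x, the last by 0.01 only. Rpl13 had 388 FPKM in CTRL, 309 FPKM in GDF15 and 287 FPKM in TGF-β. It and the other genes counted here were named after their values were seen where no fixed rule names them.

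**Figure D3:**
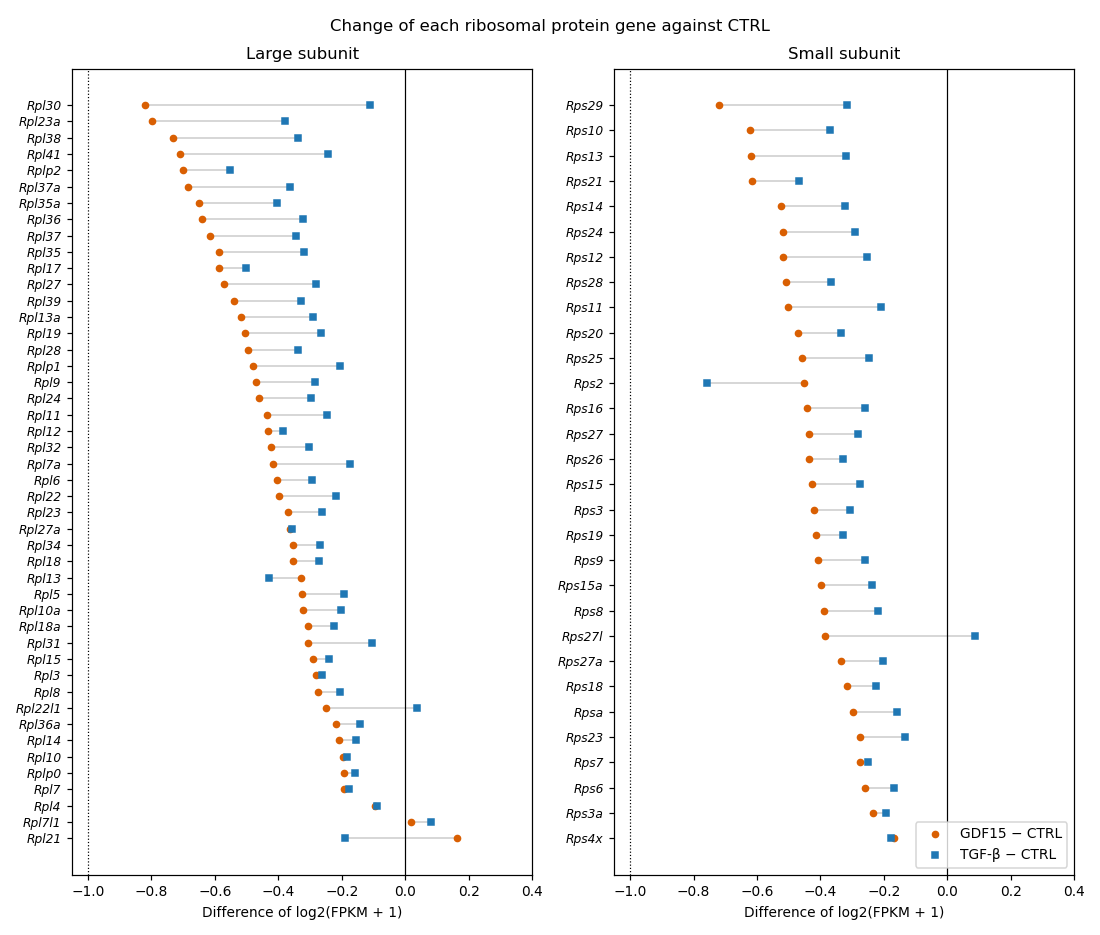
Change of 76 of the 78 ribosomal protein genes, as a difference of log2(FPKM + 1) from CTRL, for GDF15 (circles) and TGF-β (squares), ordered by the change by GDF15 within each subunit. Each point compares 1 pooled library with another, the solid line marks no change and the dotted line 2-fold lower. All but 2 circles and all but 3 squares lie left of 0, and the circle is left of the square for most genes.

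The large and the small subunit did not stand apart. The median change by GDF15 was -0.41 over 46 genes of the large subunit and -0.43 over 32 genes of the small subunit, a difference of 0.02. By TGF-β the medians were -0.26 and -0.26, a difference of -0.01. Lower in GDF15 were 44 of 46 and 32 of 32 genes, and lower in TGF-β 44 of 46 and 31 of 32. The spread was wider in the large subunit for GDF15, with quartiles of -0.56 and -0.29 against -0.51 and -0.37 in the small subunit. As separate sets of proteins that join only in the mature ribosome, the subunits were lower by nearly the same step in these libraries.

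Among the large subunit genes, Rpl30 (GRCm38 chr15:34440505-34443640, minus strand) had the largest fall by GDF15. It had 14.2 FPKM in CTRL, 7.59 FPKM in GDF15 and 13.1 FPKM in TGF-β, so that only GDF15 stood apart. Its changes were -0.82 by GDF15 and -0.11 by TGF-β, with counting standard errors of 0.17 and 0.16 from an estimated 177, 111 and 156 fragments. Fragment numbers and errors are estimates that cover counting error only. Rpl23a, at the exit of the peptide tunnel, had 209, 120 and 160 FPKM, and changes of -0.80 and -0.38. All of its 50-base windows occurred in other genes, 28 in number and all pseudogenes. Rpl38, known from its part in the translation of Hox mRNAs in the mouse embryo, had 1770, 1065 and 1401 FPKM and changes of -0.73 and -0.34. For Rpl41 the changes were -0.71 and -0.24, and its coding sequence without the stop codon has only 75 bases. It is shown because Rpl41 is the second highest member and among the 5 largest falls, and because it leaves room for few 50-base reads within the coding part.

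Rpl41, coding sequence: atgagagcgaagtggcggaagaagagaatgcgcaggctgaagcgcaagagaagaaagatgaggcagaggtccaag

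Rps29 completed the 5 largest falls by GDF15, with 1459 FPKM in CTRL, 887 FPKM in GDF15 and 1172 FPKM in TGF-β, and changes of -0.72 and -0.32. Rpl38, Rpl41, Rps29 and Rpl23a had in common that GDF15 was lowest, TGF-β was in the middle and the GDF15 value was between 57.3% and 61.1% of CTRL. They also had short transcripts, of 390 to 582 bases.

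By TGF-β the largest fall was that of Rps2 (chr17:24718116-24721929, plus strand), with changes of -0.76 by TGF-β and -0.45 by GDF15 and counting standard errors of 0.14 and 0.12. Rps2 thus had the lowest TGF-β value relative to CTRL, at an estimated 165 fragments. Rplp2 followed, with 896 FPKM in CTRL, 551 FPKM in GDF15 and 610 FPKM in TGF-β, and a change by TGF-β of -0.55. Rpl17 had 30.5, 19.96 and 21.2 FPKM and a change by TGF-β of -0.50. Rps21 had 515, 336 and 372 FPKM and a change by TGF-β of -0.47. In Rplp2, Rpl17 and Rps21, unlike Rpl30, the stimulated libraries were close to each other and both were well below CTRL.

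The P stalk is formed by Rplp0 with copies of Rplp1 and Rplp2. Rplp0 had 950 FPKM in CTRL, 830 FPKM in GDF15 and 850 FPKM in TGF-β, and changes of -0.19 and -0.16. Rplp1 had changes of -0.48 and -0.21, and Rplp2 of -0.70 and -0.55. The mRNAs of all 3 stalk proteins were lower after both stimuli, with the same order of change. With the length trend removed, Rplp0 and Rplp1 were slightly above 0 in TGF-β, at 0.02 and 0.01, and Rplp2 was at -0.36.

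Some genes were lower by less than most. Rpl4, which lines the peptide tunnel, had 857 FPKM in CTRL, 803 FPKM in GDF15 and 807 FPKM in TGF-β, with changes of -0.10 and -0.09 and counting standard errors of 0.01. Rps4x had changes of -0.17 and -0.18, and Rpl7 (808, 707 and 714 FPKM) of -0.19 and -0.18. Rpl31, also near the tunnel exit, had 132, 107 and 123 FPKM and changes of -0.31 and -0.10. Rps6, the substrate of S6 kinase, had 403, 336 and 358 FPKM and changes of -0.26 and -0.17. Rps27a, made as a fusion with ubiquitin, had 334, 265 and 290 FPKM and changes of -0.33 and -0.20. These genes were lower after both stimuli, by less than 0.32 apart from the change of Rps27a by GDF15. With the length trend removed the direction turned for several of them, to 0.02 and 0.01 for Rpl4, to 0.11 and 0.02 for Rps4x, to 0.01 for Rpl7 in GDF15, and to 0.02 for Rpl31 and 0.04 for Rps6 in TGF-β.

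Only 2 genes were not lower in GDF15. Rpl21 had a change of 0.16 by GDF15 and of -0.19 by TGF-β, with counting standard errors of 0.23 and 0.26. These errors are for log2 FPKM without the added 1, on which scale the changes of Rpl21 were 0.23 and -0.28, about as large as their errors. Rpl7l1 (chr17:46773907-46782672, minus strand) had 15.7 FPKM in CTRL, 15.9 FPKM in GDF15 and 16.6 FPKM in TGF-β, with changes of 0.02 and 0.08 and counting standard errors of 0.07 and 0.08. Its level in GDF15 was within the counting error of CTRL, and that in TGF-β was slightly more than 1 counting error above it.

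The 3 genes that were not lower in TGF-β were Rps27l, Rpl22l1 and Rpl7l1, which are the 3 expressed paralogs of the group. Rps27l (chr9:66946086-66949516, plus strand), a known p53 target, had 133 FPKM in CTRL, 101.1 FPKM in GDF15 and 141 FPKM in TGF-β. Its changes were -0.39 and 0.09, with counting standard errors of 0.08 and 0.08. Rpl22l1 (chr3:28805436-28807424, plus strand) had 63.5, 53.2 and 65.2 FPKM and changes of -0.25 and 0.04, with counting standard errors of 0.10 and 0.10. In both paralogs GDF15 was the lowest library, and TGF-β was slightly above CTRL, by about the counting error or less. The 75 other genes above the minimum were all lower in TGF-β, with a median change of -0.27. This pattern was noticed in these values and was not tested.

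The parents of these paralogs were lower after both stimuli, Rpl7 by little, as given above. Rpl22, a protein needed for the development of αβ T cells, had 117, 88.9 and 100.8 FPKM and changes of -0.40 and -0.22. Rps27 had changes of -0.44 and -0.28, but from an estimated 9 fragments in CTRL, with counting standard errors of 0.73 and 0.74. Of the parents of the other paralogs, Rpl3 (443, 364 and 369 FPKM) had changes of -0.28 and -0.26, Rpl10 (288, 251 and 254 FPKM) of -0.20 and -0.18, and Rpl39 (1033, 711 and 822 FPKM) of -0.54 and -0.33. With the length trend removed Rpl10 was at 0.09 and 0.03, above 0 in both. The paralogs Rpl3l, Rpl39l and Rps4l were not analysed here.

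The coding sequences of paralogs and parents were compared to see how much they share. They were 76.2% identical between Rps27 and Rps27l over 252 bases, 71.2% between Rpl22 and Rpl22l1 over 365 aligned bases, 61.8% between Rpl7 and Rpl7l1 over 725 and 84.7% between Rpl10 and Rpl10l over 642. The first 60 coding bases of Rps27 and Rps27l are shown with their 18 differences in capitals, since these 2 genes were listed at 3.80 and 133 FPKM in CTRL.

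Rps27, coding bases 1 to 60: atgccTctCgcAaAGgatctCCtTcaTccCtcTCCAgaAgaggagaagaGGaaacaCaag
Rps27l, coding bases 1 to 60: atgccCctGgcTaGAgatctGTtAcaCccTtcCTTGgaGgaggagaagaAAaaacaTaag

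All 50-base windows of Rps27 occurred in other genes, 9 in number, of which 8 are pseudogenes. In contrast, 48.3% of the windows of Rps27l did.

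The change by GDF15 ran with transcript length, among ribosomal protein genes and among other genes alike. Spearman's rho between length and change was 0.46 over the 78 genes and 0.46 over 9114 other genes for GDF15, and 0.26 and 0.23 for TGF-β. With coding length it was 0.60 and 0.34 among the ribosomal protein genes, and 0.33 and 0.10 among other genes. Genes of a table share libraries and depth, and these values are descriptions. Ribosomal protein transcripts are short, with a median of 853 bases against 3000 for other genes.

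Within length classes, ribosomal protein genes were lower than other genes in GDF15. Up to 600 bases, the median change by GDF15 was -0.55 over 20 ribosomal protein genes and -0.35 over 89 other genes. From 601 to 800 bases it was -0.45 over 16 and -0.32 over 166 genes. From 801 to 1200 bases it was -0.38 over 24 and -0.23 over 543 genes, and from 1201 to 2000 bases -0.30 over 12 and -0.13 over 1628 genes. For TGF-β the same 4 classes gave -0.31 and -0.24, -0.28 and -0.15, -0.23 and -0.18, and -0.24 and -0.13. Over 2000 and up to 10000 bases, 6 ribosomal protein genes had medians of -0.38 and -0.23 and 6528 other genes 0.02 and -0.05. The annotated lengths in this last class include those of Rps15a, Rps20 and Rpl18, 5179, 3706 and 2989 bases. Their coding parts have only 390, 357 and 564 bases, and these annotated transcripts may not be the forms in use. In each class the ribosomal protein genes had the lower median. In GDF15 the median of other genes came closer to 0 with each step of length, and that of the ribosomal protein genes did so over the first 4 classes.

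Ribosomal protein genes are also highly expressed. Among other genes of up to 800 bases with a mean above 100 FPKM, 59 in number, the change had a median of -0.47 in GDF15 and -0.27 in TGF-β, and 56 and 52 of them were lower than in CTRL. These values are close to the -0.42 and -0.26 of the ribosomal protein genes. Other genes above 800 bases with a mean above 100 FPKM, 324 in number, had medians of -0.06 and -0.03. Within the middle 80% of the length and the FPKM of the ribosomal protein genes there were 433 other genes, with medians of -0.22 and -0.13, and 53 ribosomal protein genes, with medians of -0.41 and -0.26. After the running median of the change by length, fitted on other genes, was taken off, the median of the 78 genes became -0.16 in GDF15 and -0.09 in TGF-β, and 66 and 62 genes were below 0. With length and FPKM taken off together, an alternative added after seeing the data, the medians were -0.11 and -0.04, with 56 and 53 genes below 0. Whether length, level or the treatment sets the lower values cannot be told apart with 1 library per treatment.

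**Figure D4:**
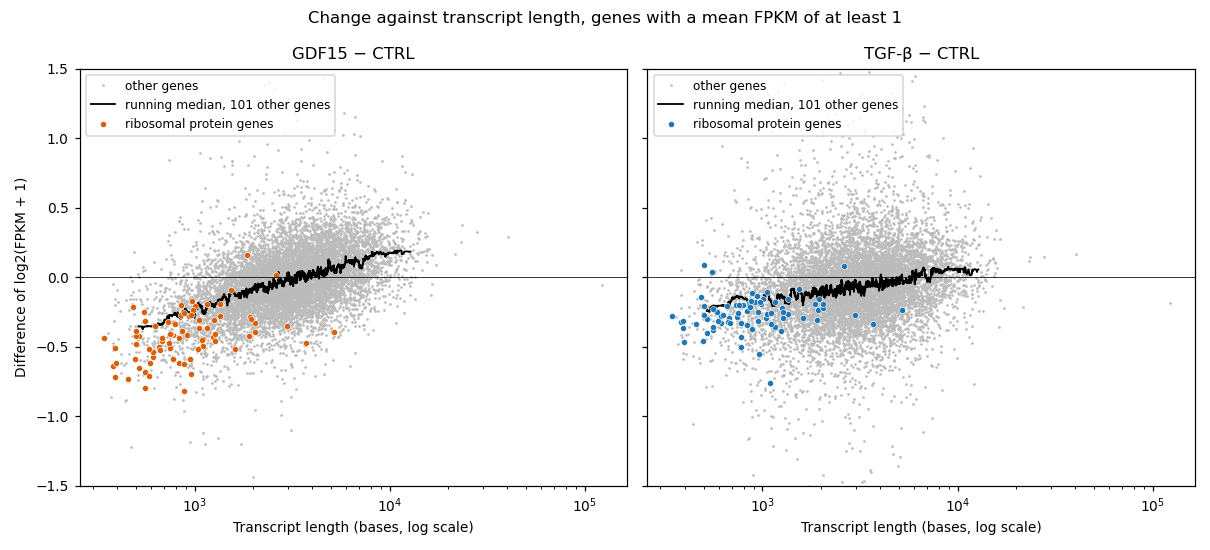
Change by GDF15 (left) and TGF-β (right), as a difference of log2(FPKM + 1) from CTRL, against transcript length (log scale) for genes with a mean of at least 1 FPKM. Large points are the 78 ribosomal protein genes, small points are other genes, some of which lie beyond the axis, and the line is the running median of other genes. The line rises with length on the left, from below -0.3 at the short end, and most ribosomal protein genes lie on or under it.

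The removal of the length trend was also read gene by gene. Rpl30 stayed low in GDF15 (-0.57) and was above 0 in TGF-β (0.11). Next in GDF15 were Rps15a (-0.48), Rpl23a (-0.44), Rps20 (-0.44) and Rplp2 (-0.42). Rps15a and Rps20 are among the genes with doubtful annotated lengths, as is Rpl18, at -0.38 in GDF15. Rpl38, Rps29 and Rpl41 were no longer among the 5 lowest. Rpl21 (0.27) and Rpl36a (0.14) were highest in GDF15. In TGF-β, Rps2 was at -0.59, Rpl17 at -0.36 and Rplp2 at -0.36. Rps27l and Rpl22l1 were at 0.31 and 0.24 in TGF-β, and at -0.02 and 0.10 in GDF15. In GDF15 the order thus depended on the correction, whereas Rps2, Rplp2 and Rpl17 were the 3 lowest genes in TGF-β with and without it. Rps2 and Rpl17 are among the 5 genes with the most pseudogenes, whose levels are uncertain, with counting standard errors of 0.14 and 0.13 in TGF-β. Rps15a and Rpl36a are named here after their values were seen.

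Ribosomal proteins whose symbols the rule does not match were examined next. Fau had 789 FPKM in CTRL, 556 FPKM in GDF15 and 626 FPKM in TGF-β, and changes of -0.51 and -0.33. Gnb2l1 (Rack1), a scaffold protein on the small subunit, had 1111, 921 and 1014 FPKM and changes of -0.27 and -0.13. Both were lower after each stimulus, as most ribosomal protein genes were.

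Other genes of the translation machinery differed in the size of the change. A list of 20 genes held translation factors and other genes counted among TOP genes, including Gnb2l1, and their motif was not checked here. Of these, 16 were lower in GDF15 and 18 in TGF-β, and the medians were -0.12 and -0.21. Lower were 55.6% and 62.8% of all genes, and 76.1% and 71.8% of other genes of 1201 to 2000 bases. Eef1b2, a subunit of the elongation factor 1 complex (301, 228 and 233 FPKM, changes of -0.40 and -0.37), and Naca, of the nascent polypeptide complex (245, 193 and 196 FPKM, changes of -0.34 and -0.32), were lowest in GDF15 relative to CTRL. Hnrnpa1, a splicing factor (24.3, 28.5 and 28.7 FPKM, changes of 0.22 and 0.23), and Npm1, the nucleolar protein nucleophosmin (232, 260 and 245 FPKM, changes of 0.16 and 0.07), were higher in both. In this list the GDF15 change was not larger than that of TGF-β, and its transcripts, with a median of 1891 bases, were longer.

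Of 29 genes of ribosome biogenesis, 17 were lower in GDF15 and 12 in TGF-β, and the medians were -0.07 and 0.00. Polr1d, a subunit shared by RNA polymerases I and III, was the lowest in GDF15 (100.6, 72.3 and 84.95 FPKM, changes of -0.47 and -0.24). Fbl, the nucleolar methyltransferase fibrillarin, had 21.1, 17.1 and 24.0 FPKM and changes of -0.28 and 0.18. Utp20 (8.16, 10.97 and 10.1 FPKM, changes of 0.39 and 0.28) and Nop58 (37.5, 43.0 and 44.0 FPKM, changes of 0.19 and 0.23), which act in the processing of pre-ribosomal RNA, were higher after both stimuli. Lower were thus 58.6% of them in GDF15, against 55.6% of all genes, and 41.4% in TGF-β, against 62.8%. Among other genes of 2001 to 10000 bases, the class of their median length of 2297 bases, 46.9% and 58.7% were lower.

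Mitochondrial ribosomal proteins, which are encoded in the nucleus and form the separate ribosome of mitochondria, were lower in 69 of 76 cases in GDF15 and 64 in TGF-β, with medians of -0.26 and -0.15. These were 90.8% and 84.2%, against 55.6% and 62.8% of all genes and 76.1% and 71.8% of other genes of 1201 to 2000 bases, the class of their median length of 1284 bases. Mrpl52 (141, 91.2 and 109 FPKM, changes of -0.62 and -0.36) and Mrps21 (110, 72.05 and 89.96 FPKM, changes of -0.60 and -0.28) had the lowest changes by GDF15. Mrps27 (9.28, 9.97 and 11.3 FPKM, changes of 0.09 and 0.26) and Mrpl16 (10.6, 11.2 and 12.7 FPKM, changes of 0.08 and 0.24) had the highest.

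Genes of the respiratory chain and ATP synthase, chosen by symbol without a check of each product, were lower in 69 of 72 cases in GDF15 and 64 in TGF-β. The medians were -0.38 and -0.21. These were 95.8% and 88.9%, against 86.6% and 78.5% of other genes of 801 to 1200 bases. Their median transcript length of 850 bases was close to that of the ribosomal protein genes. Atp5k (224, 123 and 161 FPKM, changes of -0.86 and -0.48) and Ndufa3 (189, 113 and 139 FPKM, changes of -0.74 and -0.44) had the lowest changes by GDF15. Atp5s (2.83, 3.003 and 2.32 FPKM, changes of 0.06 and -0.21) and Ndufs1 (33.9, 35.3 and 35.2 FPKM, changes of 0.06 and 0.05) had the highest by GDF15, and Atp5s was lower in TGF-β. The direction and the order of the stimuli were the same as for the ribosomal protein genes in this list, which was not chosen for a part in translation.

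**Figure D5:**
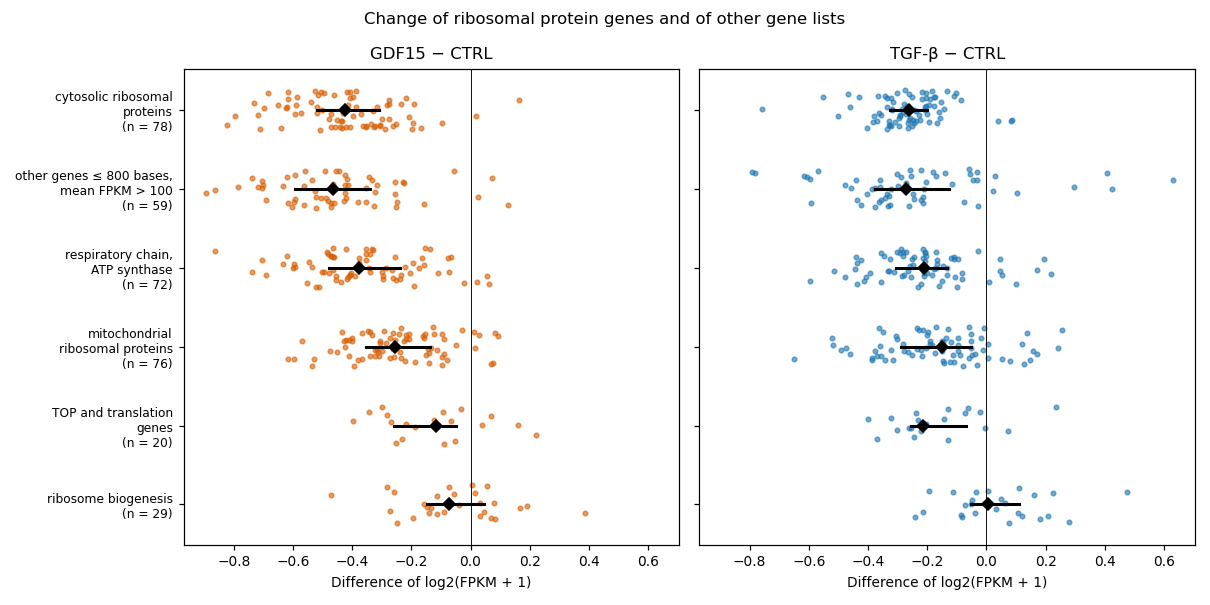
Change by GDF15 (left) and TGF-β (right), as a difference of log2(FPKM + 1) from CTRL, for the ribosomal protein genes and 5 other lists of genes with a mean of at least 1 FPKM. Each point is 1 gene, set apart vertically at random, diamonds are medians and bars span the quartiles. The ribosomal protein genes, the 59 other short and highly expressed genes and the respiratory chain genes lie at similar values, and the ribosome biogenesis genes near 0.

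RefSeq promoters of GRCm38.p6 were matched to 60 of the 81 genes. A run of at least 8 pyrimidines (C or T on the strand of the gene) that touched the 20 bases on either side of the annotated start was present in 32 of the 60 genes (53.3%), against 23.7% of the 27025 genes with a promoter and 24.1% of the 11466 of these in the expression table. The word CTTTCC on the strand of the gene was found within these bases, in some genes as part of such a run, in 10 genes (16.7%), against 2.30% and 2.35%. A match is a description of letters and the annotated start can lie some bases from the start in use. The 40 bases around the start are shown for genes from the ends of the order, for Rps6 and for the paralogs, 5′ to 3′ on the strand of the gene, with the longest run of pyrimidines in capitals. Where a gene had several promoters, that with the longest run is shown.

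Rpl38, chr11:114668560-114668599, plus strand: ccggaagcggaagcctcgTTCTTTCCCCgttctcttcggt
Rplp2, chr7:141447631-141447670, plus strand: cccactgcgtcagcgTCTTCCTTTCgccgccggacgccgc
Rpl4, chr9:64173367-64173406, plus strand: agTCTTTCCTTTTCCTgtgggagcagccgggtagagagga
Rps6, chr4:86857348-86857387, minus strand: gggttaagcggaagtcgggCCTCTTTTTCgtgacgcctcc
Rps27l, chr9:66946066-66946105, plus strand: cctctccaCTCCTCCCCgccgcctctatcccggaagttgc
Rpl22l1, chr3:28805488-28805527, plus strand: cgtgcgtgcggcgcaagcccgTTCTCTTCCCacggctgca
Rpl7l1, chr17:46782637-46782676, minus strand: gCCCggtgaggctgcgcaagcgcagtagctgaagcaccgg

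The runs were 10 bases long in Rpl38, Rplp2, Rps6 and Rpl22l1, 14 in Rpl4 and 9 in Rps27l. Rpl7l1, which was not lower after either stimulus, had no run above 3 bases in this window. Rpl4, with the smallest fall among the genes lower after both stimuli, and Rpl38, with one of the largest, both had a long run at the start. Whether a run goes with the change was not tested over the genes with a promoter.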

How the data were processed

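The authors prepared stranded mRNA libraries from NIH3T3 fibroblasts and sequenced 50 bases single-end. The submitters' processing notes name TopHat 1.3.2, Bowtie 0.12.9, Cufflinks 2.0.2 and the build mm10. The deposited values are FPKM of protein coding genes reviewed in UniProt, used as they are. The gene annotation, the treatment of reads matching several places and the use of strand are not given in the sources used here.

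Changes are differences of log2(FPKM + 1), with a minimum mean of 1 FPKM over the libraries for medians and counts. Over 2-fold is a difference above 1, and a smaller step of 0.32 was also counted. With 1 library per treatment no test was made. Named are the 5 highest and lowest members, the 5 largest rises (only 2 and 3 rose, the others being the least lowered) and falls by each stimulus, members under the minimum, the P stalk, paralogs with their parents, Rps6 and Rps27a, and of other lists the 2 largest rises and falls by GDF15. The single values of 3 genes, 2 of them members, are not reported here and the 2 members are left out of plots that name genes. The members, lists and comparisons were chosen with earlier results of these data known.

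Length, sequence and position came from GENCODE M21, matched for 15463 of 15554 genes. Depth was estimated from FPKM steps with transcripts shortened by 220 bases, and intervals from it cover counting error only. Alternatives were other pseudocounts, minimums, scalings and removal of trends. The trend removal was tested on simulated data. Scripts ran in Python 3.11.15 (numpy 2.4.6, pandas 2.3.3, scipy 1.17.1, figures by matplotlib 3.10.9).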

Additional observations from a re-analysis of the deposited data

How the results depend on the processing

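The median changes kept their sign under all 12 alternatives, and no member passed 2-fold under any. The medians moved most when trends with transcript or coding length, fitted on other genes, were taken off. With transcript length removed they were -0.16 by GDF15, -0.0867 by TGF-β and 0.0755 between TGF-β and GDF15. With length and GC content they were -0.17, -0.11 and 0.0745, with coding length -0.27, -0.15 and 0.0881, and with length and mean FPKM -0.11, -0.0416 and 0.0518. With mean FPKM alone they moved less, to -0.31, -0.19 and 0.10. Instead of 4, 26 members were then lower in TGF-β than in GDF15 with length removed, 26 with length and GC content, 26 with length and mean FPKM, 12 with mean FPKM and 10 with coding length. Among the 12 members with under 50% of their windows in other genes, 11 were lower in GDF15, 10 in TGF-β and 0 in TGF-β against GDF15, and the subunits differed by 0.15 in GDF15. The smaller number of genes sets these counts, and for the other values the cause was not tested. Coding length, length with mean FPKM, and shared windows were added after seeing the data. The difference between the subunits lay between -0.04 and 0.03 in both comparisons with CTRL under the other 11, and its sign changed with the setting. Of 668 values of 33 named genes under the alternatives, 568 moved by less than the scaled median absolute deviation of other genes, 0.22 in GDF15 and 0.23 in TGF-β, and 100 by more. The sign changed in 44, all after removal of a trend.

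No paired analysis was possible because the groups hold 1 library each, so leaving out a library removes its treatment. Without CTRL only TGF-β against GDF15 remains, given above. Depth limits Rps27 and Rpl29, with under 10 estimated fragments a library, and Rpl26 and Rpl10l give no change. Pooling leaves the spread between cultures unknown.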
